A study of Caenorhabditis elegans with 12 samples.

Results

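The comparison set the HLH strain of Caenorhabditis elegans at title code 2 against the marker strain at title code 4. Each group had 3 arrays, so that 6 of the 12 arrays of the study were compared, while the fit held all 12. By its labels the HLH strain holds pHS::hlh-8 together with a second construct, pHS::hlh-2, and in addition egl-15::gfp and pRF4. The marker strain at code 4 holds egl-15::gfp and pRF4, with neither hlh construct. The labels describe pRF4 as a marker of transformation and leave pHS undefined. Both groups therefore shared the reporter and pRF4, and the constructs with hlh-8 and hlh-2 were what their labels differed in. The remaining 6 arrays, HLH code 1 and marker code 3, came from the same strains and share no array with the members. Their values are given beside those of the members. These arrays were in the same fit, so the spread and set effects behind each SE and p came from all 12 arrays. With 1 array left out, the fitted difference also draws on codes 1 and 3 through the set effects. The design text states 3 biological replicates and a heat shock treatment, but no label says which code was heat shocked, so all values are given by code. Stage, tissue, the number of independent lines and whether the constructs were integrated were not stated in the labels.

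Titles also carry a set number from 1 to 3. HLH code 2 had arrays titled for set 1, for set 2, and 2_2 (2), a title that repeats set 2, while set 3 had no other array of this code. The array titled 2_2 (2) was placed in set 3, and the comparison was repeated without it. Wherever 3 signals are listed for a group they run in the order set 1, set 2, set 3, so that the last HLH code 2 signal is that of the array titled 2_2 (2). Every value called a signal is the deposited MAS5 intensity of 1 probe set on 1 array, on a linear scale, and every log2 difference is HLH code 2 minus marker code 4 unless codes 1 and 3 are named. Since a probe set's brightness depends on its probes, levels are compared between arrays and not between genes.

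HLH-8 is the nematode Twist protein, a basic helix-loop-helix factor of the M lineage, the postembryonic mesoderm that gives rise to the sex muscles, some body wall muscles and coelomocytes. It binds DNA at E boxes either as a pair of HLH-8 molecules or together with HLH-2, the E/Daughterless protein, which is a partner of many tissue-restricted helix-loop-helix factors. Known targets include egl-15, an FGF receptor needed for migration of the sex myoblasts, arg-1, a Notch ligand of the DSL family expressed in vulval and enteric muscles, ceh-24, a homeobox gene of vulval muscles, and hlh-8 itself. The pRF4 plasmid carries a dominant form of the cuticle collagen gene rol-6, which makes worms roll.

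Signals were evenly scaled over the arrays, the median lying between 180.3 and 208.0 and the trimmed mean being 500.1 on every array. Arrays with the same set number deviated together: the correlation of deviations from the group means across probe sets was 0.31 to 0.79 in the 15 pairs of 1 set and -0.69 to 0.53 in the 30 pairs of different sets. Deviations within a group cancel by construction, so higher values within sets bring lower ones between sets. The HLH code 2 mean left out the array titled 2_2 (2), so the arrays of sets 1 and 2 of that group deviated as mirror images. Deviations of the array titled 2_2 (2) correlated at 0.23 to 0.54 with the arrays of set 3. They correlated at 0.05 to 0.24 with those of set 1 and at -0.51 to -0.31 with those of set 2. This sets the array apart from set 2, while medians of 0.23 for set 3 and 0.19 for set 1 hardly tell those sets apart. Its log2 signals differed from those of the array titled 2_2 with an SD of 0.48, within the 0.38 to 0.68 of the other pairs within a group. The arrays titled 2_2 and 2_2 (2) were therefore not treated as 1 library.

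The genes carried by the constructs were first examined. hlh-8 had signals of 4842.8, 4696.3 and 3793.5 in HLH code 2, against 151.2, 130.0 and 200.7 in marker code 4. Its lowest signal in HLH code 2 was far above its highest in marker code 4, and the log2 difference of 4.81 ± 0.23 (SE, n = 3 each) was a 28.0-fold rise, with an adjusted p of 2.5e-07 in limma's moderated test. At the other codes hlh-8 had signals of 805.5, 1359.5 and 707.7 in HLH code 1, against 144.0, 134.5 and 152.7 in marker code 3, a log2 difference of 2.68 with a limma adjusted p of 8.4e-05. The strain difference of hlh-8 was thus larger by 2.13 ± 0.32 at codes 2 and 4 (SE; 95% interval 1.43 to 2.82). This difference of differences had an unadjusted p of 1.7e-05 and a limma adjusted p of 0.21 over the 12328 probe sets tested, so it was not called. Over 21 alternative settings its adjusted p ran between 0.0065 and 1, and it was called under 1 of them, without the HLH code 1 array of set 2. The probe set does not tell transcripts of the construct from those of the chromosomal gene.

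hlh-2 had signals of 761.1, 1508.2 and 734.2 in HLH code 2, against 170.2, 334.4 and 197.1 in marker code 4. In each set the HLH code 2 array was the brighter one, and the log2 difference of 2.08 ± 0.22 was a 4.22-fold rise (SE; limma adjusted p = 0.00043). A second hlh-2 probe set rose by 1.48 on the log2 scale (limma adjusted p = 0.00081). At codes 1 and 3 the hlh-2 difference was 1.67, and it differed from that at codes 2 and 4 by 0.40, with a 95% interval of -0.27 to 1.07. rol-6, the collagen gene of pRF4, which both strains carry, had signals of 15232.9, 15926.7 and 10305.9 in HLH code 2, against 5581.6, 7499.9 and 5799.0 in marker code 4. The groups did not overlap, and rol-6 rose by 1.12 ± 0.13 on the log2 scale, or 2.18-fold (SE; limma adjusted p = 0.00075). It was also higher at codes 1 and 3, by 0.98 (limma adjusted p = 0.0017). Since the labels give both strains pRF4, amounts of the marker and the presence of the hlh constructs cannot be told apart in the strain comparison.

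**Figure D1:**
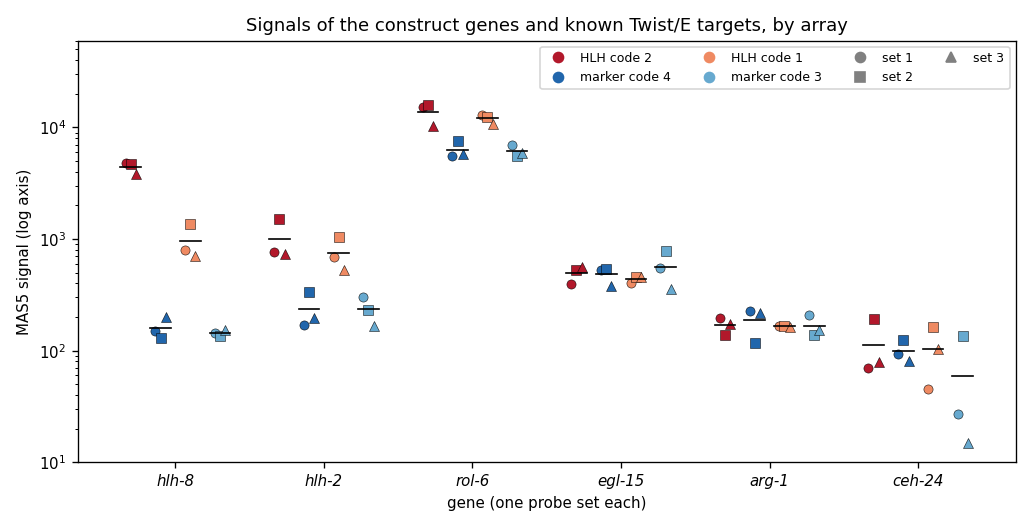
MAS5 signals (log axis) of the genes carried by the constructs and of the known Twist targets, 1 point per array with its set as shape and a bar at the group's mean, with HLH code 2 left of marker code 4 and HLH code 1 left of marker code 3. hlh-8, hlh-2 and rol-6 lie apart in both pairs of codes, while egl-15, arg-1 and ceh-24 overlap between HLH code 2 and marker code 4.

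The known targets other than hlh-8 showed no called difference. egl-15, which is also the gene behind the reporter, had signals of 399.2, 533.5 and 562.7 in HLH code 2, against 526.5, 539.3 and 382.9 in marker code 4. The ranges overlap, and the log2 difference was 0.05 ± 0.21 (SE) with a 95% interval of -0.41 to 0.50 and a limma adjusted p of 0.94. Its sign depended on the arrays used, being -0.19 without the array titled 2_2 (2) and -0.06 without the marker code 4 array of set 3. A second egl-15 probe set differed by -0.09 (limma adjusted p = 0.81). arg-1 had signals of 196.0, 139.1 and 172.6 in HLH code 2, against 227.7, 116.5 and 219.0 in marker code 4. Its log2 difference was -0.10 ± 0.23 (SE) with a 95% interval of -0.59 to 0.39 and a limma adjusted p of 0.86, and it was 0.06 without the marker code 4 array of set 3. ceh-24 was too dim for the filter and was not tested, its signals being 69.8, 191.5 and 78.8 in HLH code 2 and 94.3, 125.4 and 80.0 in marker code 4. In a bulk lysate fewer cells of a type and less RNA per cell cannot be told apart, and a change in the few cells of the M lineage is averaged with all other cells.

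Across all probe sets, a call was a limma p adjusted by Benjamini-Hochberg under 0.05 with the set number as a block. Of 12328 tested probe sets 409 were called between HLH code 2 and marker code 4 (3.32%), 177 higher (1.44%) and 232 lower (1.88%), and the median over all tested was 0.03 on the log2 scale. The higher ones named 150 genes and the lower ones 188 genes. Most differences were modest: the median was 0.84 over the called rises and -0.75 over the called falls, and the log2 difference passed 1 for 59 rises and 67 falls, and 2 for 11 of each. Of the called rises 141 showed no overlap between the 3 arrays of HLH code 2 and the 3 of marker code 4, as did 189 of the called falls. Among all tested probe sets 7.20% lay wholly higher and 5.78% wholly lower.

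The number of calls rested on the block and on single arrays. With the array titled 2_2 (2) left out 480 probe sets were called (3.89%), 180 higher (1.46%) and 300 lower (2.43%), of which 121 and 185 were among the calls made with it. Without the set number as a block 23 rises (0.187%) and 26 falls (0.211%) were called, 0.397% in all, each of them also a call with the block. Leaving out the HLH code 2 array of set 1 gave 91 rises and 95 falls, and leaving out that of set 2 gave 53 rises and 56 falls. Leaving out the marker code 4 array of set 1 gave 78 rises and 83 falls, that of set 2 gave 85 and 70, and that of set 3 gave 116 and 149. The array titled 2_2 (2) lay nearer to marker code 4 than the other HLH code 2 arrays in more of the called genes than over all probe sets: it was the highest of the 3 in 136 of 232 falls and the lowest in 98 of 177 rises, while among all 12328 it was the highest in 3544 and the lowest in 4108.

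**Figure D2:**
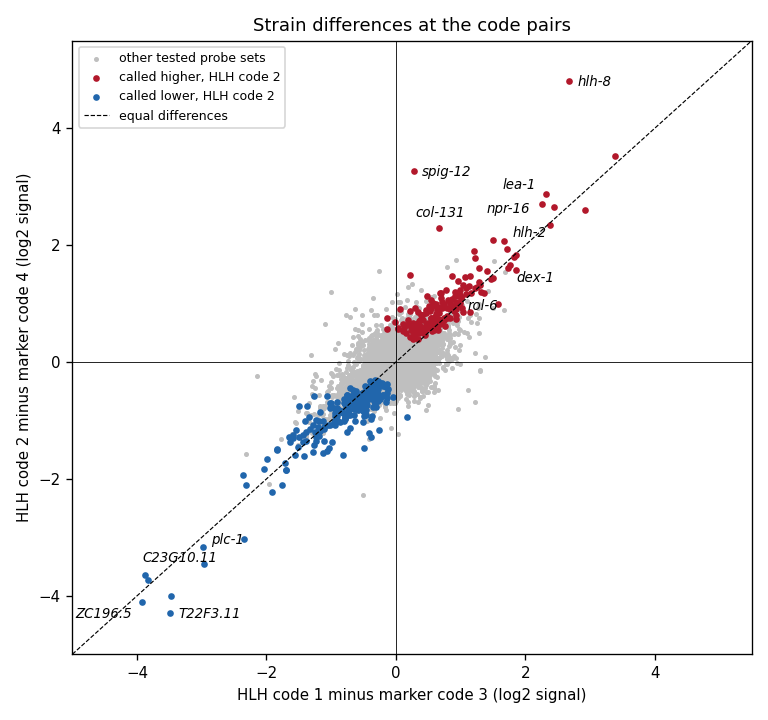
The log2 difference of each tested probe set between HLH code 2 and marker code 4 (y axis) against that between HLH code 1 and marker code 3 (x axis), which rest on separate arrays, with called probe sets coloured by direction and a dashed line where both are equal. hlh-8 lies at the top, at 4.81 against 2.68, and most called probe sets lie on the same side of 0 on both axes.

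The same strain difference at codes 1 and 3 served as a second view, on other arrays of the same strains and sets in the same fit. There 451 probe sets were called (3.66%), 182 higher (1.48%) and 269 lower (2.18%). Of the 177 rises at codes 2 and 4, 174 were positive at codes 1 and 3, and of the 232 falls 231 were negative. Called at both were 91 rises, which is 51.4% of the rises at codes 2 and 4 and 50% of those at codes 1 and 3, and 145 falls, which is 62.5% and 53.9%. Across all tested probe sets the log2 differences of the 2 pairs of codes had a Pearson r of 0.71. This describes probe sets, which are not independent. Arrays of 1 strain and set can also share deviations. W08E12.2, chosen after its values were seen, had signals of 840.6, 1408.6 and 511.6 in HLH code 2. In HLH code 1 it had 796.1, 1337.6 and 422.0. The fit has no term for this, so the shared signs and r are not independent support. The p of the strain differences do not allow for it either. Single arrays moved the counts at codes 1 and 3 as well. Rises there numbered 62 without the HLH code 1 array of set 1, 42 without that of set 2 and 88 without that of set 3. Without the marker code 3 array of set 1 they numbered 80, without that of set 2 they numbered 42, and without that of set 3 163. Falls numbered 134, 84 and 157 without the HLH code 1 arrays of sets 1, 2 and 3. Without the marker code 3 arrays of sets 1, 2 and 3 they numbered 107, 67 and 278.

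No probe set was called for the difference between the 2 strain differences, by limma with the block, while 367 of 12328 had an unadjusted p under 0.05 (2.98%). Without the block none was called either and 87 had an unadjusted p under 0.05. Both counts are below the share that a threshold of 0.05 passes on average when no probe set differs, so the test was conservative here. No gene can therefore be called particular to codes 2 and 4 from these arrays. The empty list does not show that the strain differences were equal.

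Among the genes highest in the HLH strain was lea-1, which encodes a late embryogenesis abundant protein of the kind that protects cells from drying. lea-1 had signals of 939.8, 1073.4 and 988.8 in HLH code 2, against 159.3, 216.0 and 74.2 in marker code 4. The HLH code 2 arrays were close to each other and all far above marker code 4, with a log2 difference of 2.87 ± 0.23 or 7.31-fold (SE; limma adjusted p = 7.4e-05). All 5 tested lea-1 probe sets were called, with log2 differences of 1.42 to 2.87, and that of 1.42 lost its call without the array titled 2_2 (2) (limma adjusted p = 0.087). At codes 1 and 3 the lea-1 difference was 2.31. npr-16, which encodes a receptor of the neuropeptide receptor family, had signals of 468.1, 758.5 and 470.3 in HLH code 2, against 109.0, 140.6 and 39.5 in marker code 4. It rose by 2.70 ± 0.25, or 6.51-fold (SE; limma adjusted p = 0.00018), and its second probe set rose by 1.65 (limma adjusted p = 0.00056).

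dex-1, which encodes an extracellular matrix protein needed for dendrite extension of sensory neurons, had signals of 866.3, 916.7 and 827.1 in HLH code 2, against 338.7, 205.1 and 336.2 in marker code 4. These were tight groups without overlap, 1.60 ± 0.19 apart on the log2 scale (SE; limma adjusted p = 0.00069), and the second probe set of dex-1 was also called higher (limma adjusted p = 0.0017), with a size that depends on the floor because 1 of its 3 marker code 4 signals lay under 16.7, the floor to which all lower signals were raised. tbb-6, a beta-tubulin gene, had signals of 672.9, 490.8 and 621.1 in HLH code 2, against 278.9, 135.0 and 202.5 in marker code 4, and rose by 1.58 ± 0.16 (SE; limma adjusted p = 0.00024). cnc-2, a caenacin gene of the antimicrobial peptide families of the epidermis, had signals of 1902.4, 3134.6 and 2370.9 in HLH code 2, against 859.9, 750.5 and 782.0 in marker code 4. Its lowest HLH code 2 signal was more than the highest of marker code 4, and it rose by 1.60 ± 0.19 (SE; limma adjusted p = 0.00069). F35F10.5 had signals of 556.5, 457.6 and 439.6 in HLH code 2, against 285.2, 94.0 and 206.6 in marker code 4, a rise of 1.45 ± 0.23 (SE; limma adjusted p = 0.0050).

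These 6 genes together with hlh-8 and hlh-2 were the 8 of the 15 named rises that stayed called when any 1 of the 6 compared arrays was left out. The other 7 rises lost their call without at least 1 array. spig-12 had signals of 298.7, 334.8 and 333.8 in HLH code 2, against 41.1, 17.9 and 50.6 in marker code 4, a rise of 3.27 ± 0.60 (SE; limma adjusted p = 0.010). Its signals outside HLH code 2 were at most 124.2, under every array's median, so spig-12 passed the filter only through the group where it was high. The signal of 17.9 lay close to the floor of 16.7, so the size of the rise is uncertain. Its limma adjusted p was 0.057 without the HLH code 2 array of set 1 and 0.067 without that of set 2. col-131, a cuticle collagen gene, had signals of 209.0, 302.6 and 197.1 in HLH code 2, against 20.7, 139.2 and 37.0 in marker code 4, a rise of 2.29 (limma adjusted p = 0.018). Its second probe set differed by 0.63 (limma adjusted p = 0.063), and the call was lost without the HLH code 2 array of set 1 (0.088) or set 2 (0.071) and without the marker code 4 array of set 1 (0.078) or set 3 (0.058). cex-1, which encodes a calexcitin, a calcium-binding protein, rose by 2.10 (limma adjusted p = 0.024) and lost its call whichever of the 6 arrays was left out, with limma adjusted p of 0.066 to 0.10. cnc-6, a caenacin gene, rose by 1.90 (limma adjusted p = 0.017), and its p was 0.10 without the HLH code 2 array of set 2.

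eat-20, which encodes a membrane protein with EGF motifs and is named for a feeding defect, rose by 1.83 on 1 probe set (limma adjusted p = 0.031), while its brighter probe set differed by 0.32 (limma adjusted p = 0.27). The eat-20 call was lost without the HLH code 2 array of set 1 (0.12) or set 2 (0.17) and without the marker code 4 array of set 1 (0.15) or set 2 (0.082). scl-24, of the SCP-like extracellular protein family, rose by 1.77 (limma adjusted p = 0.013), and its p was 0.10 without the HLH code 2 array of set 2, 0.077 without the marker code 4 array of set 2 and 0.053 without that of set 3. W08E12.2 rose by 1.45 (limma adjusted p = 0.0081), with p of 0.053 and 0.056 without the marker code 4 arrays of sets 1 and 2 and 0.067 without the HLH code 2 array of set 2.

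Of the 15 named falls, 8 stayed called when any 1 of the 6 arrays was left out. plc-1, which encodes a phospholipase C of the epsilon class with roles in ovulation and in shaping the embryonic epidermis, had signals of 42.4, 40.0 and 21.5 in HLH code 2, against 381.4, 286.3 and 241.2 in marker code 4. The HLH code 2 arrays were all near the dim end of the scale, and plc-1 fell by 3.17 ± 0.32 on the log2 scale, being 8.97-fold lower (SE; limma adjusted p = 0.00025). The other 2 tested plc-1 probe sets were also called lower (limma adjusted p = 0.00063 and 0.0015), but 1 and 2 of their 3 HLH code 2 signals lay under the floor of 16.7, so that the sizes depend on the floor. The plc-1 difference at codes 1 and 3 was -2.98. ZC196.5 had signals of 13.8, 3.5 and 1.9 in HLH code 2, against 307.2, 382.1 and 199.4 in marker code 4. All 3 of its HLH code 2 signals lay under the floor. Raised to it, ZC196.5 was lower by a log2 difference of -4.10 with a 95% interval of -5.16 to -3.03 (limma adjusted p = 0.00075), a size set by the floor, which was -2.59 with a higher floor and -5.99 with a lower one. Both genes were as low in HLH code 1, where ZC196.5 had signals of 7.8, 1.9 and 5.6 and plc-1 of 56.7, 36.9 and 23.2.

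F46C5.1 had signals of 396.9, 370.5 and 571.5 in HLH code 2, against 1786.7, 3074.7 and 1582.0 in marker code 4, and fell by 2.23 ± 0.35 (SE; limma adjusted p = 0.0041). clec-61, a C-type lectin gene, had signals of 195.4, 129.0 and 183.5 in HLH code 2, against 568.1, 634.0 and 409.1 in marker code 4, and fell by 1.66 ± 0.25 (SE; limma adjusted p = 0.0033). srsx-34, of a chemoreceptor family, had signals of 229.4, 281.0 and 305.9 in HLH code 2, against 688.6, 850.9 and 955.0 in marker code 4, and fell by 1.61 ± 0.20 (SE; limma adjusted p = 0.00088). In each of these 3 genes the highest HLH code 2 signal was below the lowest of marker code 4. ZK512.7 fell by 2.10 (limma adjusted p = 0.00090), F43C11.3 fell by 1.85 (0.0010), and gst-41, a glutathione S-transferase gene, fell by 1.56 (0.0015).

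The other 7 falls lost their call without an array of set 1 or 2. T22F3.11 had signals of 37.6, 99.3 and 428.5 in HLH code 2, against 2316.3, 3480.5 and 1520.9 in marker code 4. The array titled 2_2 (2) was its highest of HLH code 2, and the differences within sets 1, 2 and 3 were -5.94, -5.13 and -1.83. T22F3.11 fell by 4.30 ± 0.76 with that array (SE; limma adjusted p = 0.0091), and the difference was -5.29 without it (0.0018). C23G10.11 showed the same order, with signals of 19.6, 108.3 and 316.5 in HLH code 2, against 1106.0, 1741.9 and 685.1 in marker code 4, and fell by 3.65 (limma adjusted p = 0.016), the difference being -4.70 without the array titled 2_2 (2) (0.0014). clec-82 had signals of 155.4, 149.0 and 336.3 in HLH code 2, against 914.0, 721.9 and 542.8 in marker code 4, and fell by 1.84 (limma adjusted p = 0.010). C35C5.8 fell by 2.10 (limma adjusted p = 0.026), F15E6.3 by 1.73 (0.011), R04B5.5 by 1.58 (0.018) and K01A2.4 by 1.55 (0.017). The second probe sets of C35C5.8 and F15E6.3 were not called, with log2 differences of -1.42 (limma adjusted p = 0.051) and -2.09 (0.083), and that of F15E6.3 differed by -0.01 in set 3. Without the HLH code 2 array of set 1 these 7 had limma adjusted p of 0.057 to 0.11, without that of set 2 0.060 to 0.16, without the marker code 4 array of set 1 0.057 to 0.11 and without that of set 2 0.060 to 0.12.

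**Figure D3:**
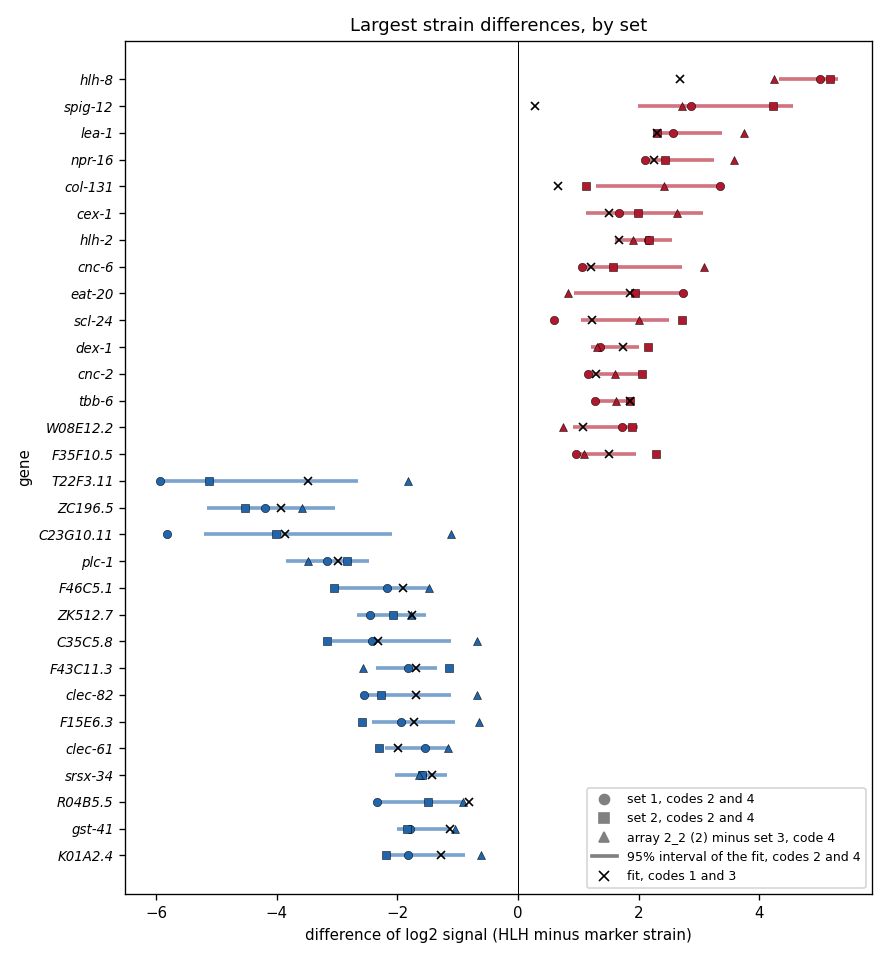
Differences of log2 signal of the 15 named rises and 15 named falls (y axis, 1 gene a row): markers give HLH code 2 minus marker code 4 within each set, bars the 95% interval of the fit, and crosses the fitted difference of HLH code 1 minus marker code 3. spig-12 lies at 3.27 at codes 2 and 4 and at 0.28 at codes 1 and 3, while lea-1, npr-16, plc-1 and ZC196.5 lie on the same side of 0 in both.

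Candidate responders were taken as the called genes without overlap whose strain differences at codes 2 and 4 departed most from those at codes 1 and 3, by unadjusted p. This ranking describes 10 genes, and no limma adjusted p of the difference of differences was under 0.05 for any of them. hlh-8 ranked first. xtr-1 had signals of 167.4, 252.4 and 266.5 in HLH code 2, against 434.7, 474.2 and 385.7 in marker code 4, and fell by 0.94 (limma adjusted p = 0.016), while its difference at codes 1 and 3 was 0.17. C17H12.2 had signals of 393.5, 449.8 and 312.8 in HLH code 2, against 245.4, 311.8 and 223.7 in marker code 4, and rose by 0.56 (limma adjusted p = 0.034), with -0.14 at codes 1 and 3. Its groups were separated by 1.0 signal unit only, the lowest of HLH code 2 being 312.8 and the highest of marker code 4 being 311.8. A dimmer C17H12.2 probe set was not tested, and its groups overlapped, with 72.5, 109.2 and 128.1 against 81.5, 103.4 and 103.6. spig-12 came next: its HLH code 1 signals of 76.9, 124.2 and 34.9 overlapped the marker code 3 signals of 38.1, 116.8 and 42.2, and the difference of differences was 2.99 ± 0.84 (SE; unadjusted p = 0.0036, limma adjusted p = 1). As stated above, spig-12 was tested only because it was bright in HLH code 2, so its place in this ranking is no support for a response.

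tbck-1, the homologue of a kinase-like protein with a TBC domain, had signals of 258.6, 251.9 and 193.5 in HLH code 2, against 146.9, 159.1 and 114.3 in marker code 4, and rose by 0.75 (limma adjusted p = 0.039), with -0.14 at codes 1 and 3. nlp-16, which encodes a neuropeptide-like protein, had signals of 494.5, 595.4 and 530.7 in HLH code 2, against 323.0, 346.9 and 311.7 in marker code 4. It rose by 0.72 (limma adjusted p = 0.013), its second probe set by 0.61 (0.029), and its difference at codes 1 and 3 was 0.19. slcf-2 rose by 0.91 (limma adjusted p = 0.031), with 0.06 at codes 1 and 3. A dimmer slcf-2 probe set was not tested, and its groups overlapped, with 119.6, 227.4 and 143.5 against 122.3, 164.1 and 101.4. The collagen gene col-133 fell by 0.62 (limma adjusted p = 0.023), with -0.14 at codes 1 and 3. nspb-6 and ugt-26, which encodes a UDP-glucuronosyltransferase, ranked here through the opposite pattern: they fell by 0.59 and 0.75 at codes 2 and 4 (limma adjusted p = 0.043 and 0.021), and their differences at codes 1 and 3 were -1.26 and -1.38.

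Apart from hlh-8, these 9 calls between HLH code 2 and marker code 4 were all lost without the HLH code 2 array of set 2, with limma adjusted p of 0.064 to 0.23. Without the marker code 4 array of set 2, 7 of them were lost (0.063 to 0.12), spig-12 and nlp-16 being the exceptions. Without the HLH code 2 array of set 1 spig-12, xtr-1, C17H12.2, tbck-1, nspb-6 and col-133 were lost (0.057 to 0.14), and without the marker code 4 array of set 1 the same genes but spig-12 (0.10 to 0.17). Without the array titled 2_2 (2) C17H12.2 (0.060), tbck-1 (0.075), nspb-6 (0.070), slcf-2 (0.098) and ugt-26 (0.063) were lost, and without the marker code 4 array of set 3 these 5 and nlp-16 (0.058 to 0.12).

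**Figure D4:**
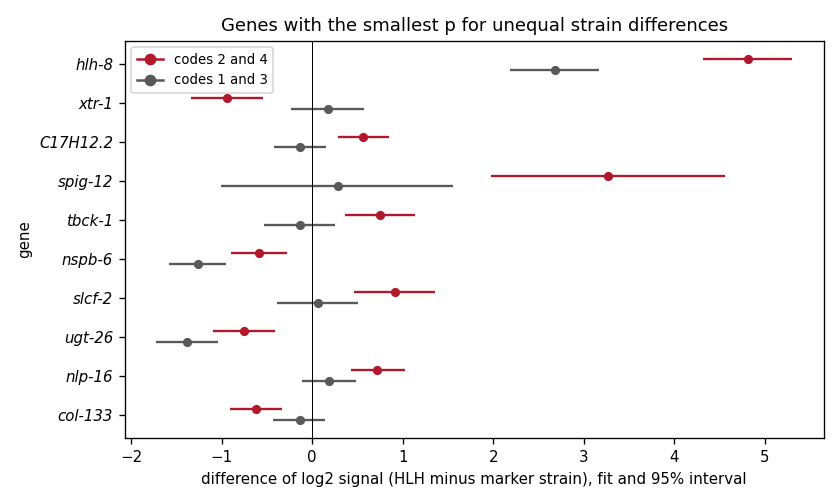
Fitted log2 difference with its 95% interval (x axis) of the 10 candidate responders, for HLH code 2 minus marker code 4 above that for HLH code 1 minus marker code 3. The intervals of hlh-8 are apart between the pairs of codes, spig-12 lying at 3.27 against 0.28.

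Gene lists around Twist and the E protein were small, and 1.44% of all probe sets were called higher and 1.88% lower, which at lists of this size is less than 1 gene each way. Of 17 tested regulators of the M lineage and mesoderm none was called in either direction, and their median was -0.10 at codes 2 and 4 and 0.02 at codes 1 and 3. The smallest p among them belonged to unc-120, a muscle transcription factor of the SRF type, with a log2 difference of 0.45 (limma adjusted p = 0.10), followed by let-381, a forkhead gene of the M lineage, with -0.36 (0.34). hlh-1, the MyoD gene of the worm, was too dim to be tested. Of 17 other helix-loop-helix factors none was called, with a median of -0.03. sbp-1, the SREBP gene, differed by -0.61 (limma adjusted p = 0.10), and by -0.79 without the array titled 2_2 (2), which was then called (0.042).

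Of 10 tested genes of the FGF receptor pathway 1 was called, and the median was 0.08. This was klo-1, a Klotho gene, with signals of 1400.9, 1517.3 and 1551.4 in HLH code 2, against 2147.8, 2390.3 and 2114.6 in marker code 4. klo-1 fell by 0.57 ± 0.11 (SE; limma adjusted p = 0.016) and its difference was -0.54 at codes 1 and 3, with tight groups in both strains. The klo-1 call was lost without the HLH code 2 array of set 1 (0.068) or set 2 (0.12) and without the marker code 4 array of set 1 (0.074) or set 2 (0.070). The FGF genes egl-17 and let-756 were too dim to be tested.

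**Figure D5:**
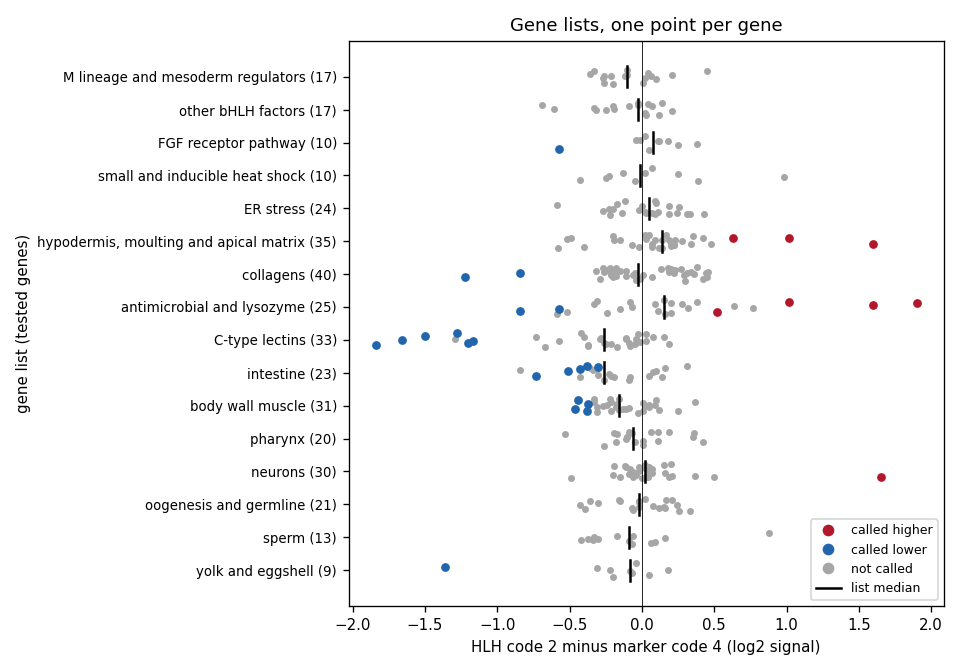
The log2 difference between HLH code 2 and marker code 4 (x axis) of every tested member of 16 gene lists (y axis), 1 point per gene, with a bar at the list's median and called members coloured. C-type lectins and intestinal genes have the lowest medians, at -0.26 each, while the M lineage list has no called member.

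None of 10 tested small and inducible heat shock genes was called between HLH code 2 and marker code 4, and their median was -0.01, against 0.29 at codes 1 and 3. hsp-16.41, chosen after its values were seen, had signals of 4775.4, 4260.6 and 5233.5 in HLH code 2, against 5505.3, 3789.4 and 4859.4 in marker code 4. Its log2 difference was 0.02 ± 0.36 (SE) with a 95% interval of -0.76 to 0.81 (limma adjusted p = 0.98). In the arrays of codes 1 and 3 the same probe set had 127.1, 94.3 and 30.2 in HLH code 1 and 105.5, 38.4 and 55.5 in marker code 3. hsp-16.2, chosen likewise, had signals of 3478.9, 1900.2 and 3673.4 in HLH code 2, against 4407.5, 1813.8 and 4021.2 in marker code 4, and a log2 difference of -0.13 with a 95% interval of -0.73 to 0.46. The set 2 arrays were the lowest for hsp-16.2 in both strains. Of 24 cytosolic chaperones none was called, with 21 differences above 0 and a median of 0.16. That median was 0.32 at codes 1 and 3, so the shift was not particular to codes 2 and 4. Of 24 genes of the ER stress list none was called, with a median of 0.05.

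Genes of the epidermis and its matrix gave 3 rises and 0 falls among 35 tested, with a median of 0.14, where 1.44% of all probe sets were called higher and 1.88% lower. Without the block 1 of the 35 was called higher. The 3 were dex-1, fbn-1 and acn-1. fbn-1, which encodes a fibrillin-like protein of the apical matrix, had signals of 2751.1, 2112.0 and 2547.2 in HLH code 2, against 1528.6, 932.7 and 1240.7 in marker code 4. Its groups lay well apart, and it rose by 1.02 ± 0.13 (SE; limma adjusted p = 0.0013), a call that stayed when any 1 array was left out and was lost without the block (0.10). acn-1, which encodes an ACE-like protein needed for moulting, had signals of 4623.6, 3217.8 and 3683.7 in HLH code 2, against 2665.0, 2188.8 and 2554.5 in marker code 4, and rose by 0.63 (limma adjusted p = 0.010). The acn-1 call was lost without the HLH code 2 array of set 1 or set 2 (0.062 each) and without the marker code 4 array of set 1 (0.057). Of 40 tested collagens of the list none rose and 2 fell, against 1.44% and 1.88% of all probe sets, with a median of -0.02. The collagen gene rol-6, called higher as above, was not in this list. col-131 was called higher only on its dimmer probe set, while lists take the brightest. col-39 fell by 0.84 (limma adjusted p = 0.0090; 0.054 without the HLH code 2 array of set 1 and 0.052 without the marker code 4 array of set 2). bli-2, which makes a collagen of the struts of the adult cuticle, fell by 1.22 (0.037), and this call was lost without any of 5 of the 6 arrays, the HLH code 2 array of set 2 being the exception (0.077 to 0.16). Here and in the other paragraphs on lists, the lists and their members were chosen with earlier results of these data known, dex-1 among them. Counts in a list beside the shares of all probe sets are therefore no test.

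Of 25 tested antimicrobial and lysozyme genes 4 were called higher and 2 lower, against 1.44% and 1.88% of all probe sets, with a median of 0.15. At codes 1 and 3 the balance was the other way, with 2 called higher, 4 lower and a median of -0.01, and without the block 1 was called higher and 0 lower at codes 2 and 4. The 4 rises were all caenacin genes: cnc-6 and cnc-2 as above, cnc-4 and cnc-3. cnc-4 had signals of 5727.5, 7495.3 and 4383.6 in HLH code 2, against 3075.5, 2848.3 and 2559.7 in marker code 4, and rose by 1.02 ± 0.17 (SE; limma adjusted p = 0.0068). The cnc-4 call was lost without the HLH code 2 array of set 2 (0.060) or the marker code 4 array of set 2 (0.051). cnc-3, named after its values were seen, rose by 0.52 (limma adjusted p = 0.017). The falls were spp-8, a saposin-like gene, by 0.84 (limma adjusted p = 0.0082), and lys-4, a lysozyme gene named after its values were seen, by 0.57 (0.031). spp-8 lost its call without the HLH code 2 array of set 2 (0.068) or the marker code 4 arrays of set 1 or set 2 (0.052 each), and lys-4 without the array titled 2_2 (2) (0.057).

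C-type lectin genes, many of them known from responses to microbes in the gut, had 0 rises and 6 falls among 33 tested, with 28 differences below 0 and a median of -0.26, while it was -0.19 at codes 1 and 3. Of all probe sets 1.88% were called lower, and without the block 2 of the 33 lectin genes were. The list was chosen with earlier results of these data known. The family taken by gene name held 65 tested genes, of which 8 fell, with a median of -0.17. The 6 falls of the list were clec-82 and clec-61, given above, and clec-60, clec-56, clec-67 and clec-66. clec-67 had signals of 378.3, 386.4 and 571.3 in HLH code 2, against 868.1, 600.7 and 1928.7 in marker code 4, and fell by 1.20 ± 0.18 (SE; limma adjusted p = 0.0039), a call that stayed when any 1 array was left out and was lost without the block (0.41). clec-60, named after its values were seen, had signals of 488.6, 435.3 and 1440.7 in HLH code 2, against 2260.2, 1546.4 and 1998.6 in marker code 4, with the array titled 2_2 (2) closest to marker code 4, and fell by 1.5 on the log2 scale (limma adjusted p = 0.027). clec-56 fell by 1.28 (limma adjusted p = 0.021), a call lost without an array of set 1 or set 2 of either group (0.054 to 0.13). clec-66 fell by 1.17 (0.030) and lost its call without any of 5 of the 6 arrays, the HLH code 2 array of set 1 being the exception (0.068 to 0.17).

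Lists that mark other tissues are given beside these groups. Of 23 tested intestinal genes 0 rose and 5 fell, against 1.44% and 1.88% of all probe sets, with a median of -0.26, and the summed signal of the list was 85160 to 117600 in HLH code 2, against 101100 to 139300 in marker code 4. The 5 were ges-1, the gut esterase gene, by 0.73, the cathepsin gene cpr-4, named after its values were seen, by 0.51, ifb-2, an intermediate filament gene of the gut, by 0.43, and the aspartyl protease genes asp-6 and asp-1, by 0.38 and 0.30. With quantile normalization the list's median was -0.15, and asp-6 (limma adjusted p = 0.18), asp-1 (0.20) and ifb-2 (0.063) were not called. ges-1, asp-6, ifb-2 and asp-1 were also not called without the HLH code 2 array of set 2 (0.070 to 0.12) or the marker code 4 array of set 2 (0.052 to 0.12). The part of the intestinal RNA in the falls of the lectin genes was not tested.

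Of 31 tested body wall muscle genes 0 rose and 4 fell, against the same shares of all probe sets, with a median of -0.16, and the summed signal was 143200 to 165100 in HLH code 2, against 161200 to 187000 in marker code 4. These were unc-27, a troponin I gene, by 0.46, tnt-2, a troponin T gene, by 0.44, unc-87, of thin filaments, by 0.38, and mlc-2, a myosin light chain gene, by 0.37. With quantile normalization the median of the list was -0.02 and none of the 4 was called (limma adjusted p 0.066 to 0.14), nor was any without the HLH code 2 array of set 2 (0.11 to 0.15) or the marker code 4 array of set 2 (0.079 to 0.14). Without the block none of the intestinal and muscle genes was called.

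The next counts stand beside the 1.44% of all probe sets called higher and the 1.88% called lower. No germline or sperm gene was called, 0 of 21 and 0 of 13 tested, with medians of -0.02 and -0.09. Of 9 yolk and eggshell genes 1 was called: cpg-2, which encodes a chondroitin proteoglycan of the eggshell, had signals of 205.3, 123.8 and 149.2 in HLH code 2, against 491.5, 254.5 and 516.5 in marker code 4. It fell by 1.36 ± 0.18 (SE; limma adjusted p = 0.0015), with no overlap between the groups, stayed called when any 1 array was left out and was lost without the block (0.20). Pharyngeal genes held 0 calls of 20, with a median of -0.06. Among 30 tested neuronal genes npr-16 alone was called, and the median was 0.02.

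The dauer, desiccation and DAF-16 list held 2 rises and 2 falls among 24 tested, against 1.44% and 1.88% of all probe sets, with a median of -0.06. lea-1 rose by 2.66 on its brightest probe set, and daf-28, which encodes an insulin-like peptide that opposes dauer entry, rose by 0.86 (limma adjusted p = 0.013). icl-1, an enzyme of the glyoxylate cycle, fell by 0.56 (0.0089), and ctl-2, a peroxisomal catalase, fell by 0.49 (0.019). daf-28 lost its call without the HLH code 2 array of set 2 (0.097) or the marker code 4 array of set 1 (0.057) or set 3 (0.059). icl-1 lost it without an array of set 2 of either group (0.072 and 0.061), and with quantile normalization (0.073). ctl-2 lost it without any of 5 of the 6 arrays, the array titled 2_2 (2) being the exception (0.057 to 0.11).

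Of 6 tested phospholipase C genes plc-1 and plc-2 were called lower, and the median of the list was -0.12. Of all probe sets 1.44% were called higher and 1.88% lower. Without the block 1 of the 6 was called lower, and at codes 1 and 3 with the block also 1. plc-2 had signals of 487.0, 378.9 and 459.5 in HLH code 2, against 638.1, 644.4 and 627.5 in marker code 4, and fell by 0.54 (limma adjusted p = 0.036), a call lost whichever of the 6 arrays was left out (0.066 to 0.21). Of 23 F-box and Skp1-related genes 1 was called: skr-4, by a fall of 0.59 (limma adjusted p = 0.040), also lost whichever array was left out (0.054 to 0.24). Several genes were called with the array titled 2_2 (2) and not without it: cex-1, F35F10.7, bli-2, clec-66, T28A11.2 and Y58A7A.2 had the largest differences among them. F35F10.7, T28A11.2 and Y58A7A.2 rose by 1.38, 1.00 and 0.92 with it (limma adjusted p = 0.014, 0.019 and 0.023), and differed by 1.13, 0.84 and 0.84 without it (0.055, 0.064 and 0.061). These calls did not rest on that array alone. Without the HLH code 2 array of set 2 the 3 genes had limma adjusted p of 0.084, 0.11 and 0.14, and T28A11.2 and Y58A7A.2 also lost their call without the marker code 4 arrays of set 2 (0.068 and 0.12) or set 3 (0.078 and 0.065).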

How the data were processed

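Total RNA from worm lysates was, per the labels' protocols, turned into biotinylated cRNA and hybridised to 1 array per sample. The authors deposited intensity on a linear scale, 1 signal per probe set, made with MAS5 per the submitters' processing notes, which name no version. MAS5 subtracts background, so low signals are noisy and ratios of low signals can be inflated. Signals under the 10th percentile (16.7) were set to that value before taking log2. Of 22625 probe sets, 77 controls were left out, and 12328 were tested because their signal was above the array's median on at least 3 arrays. limma 3.58.1 in R 4.3.3 (lmFit, eBayes with intensity trend) was fitted to all 12 arrays with 4 groups and the set number as a block, leaving 6 residual degrees of freedom. Tests were two-sided and adjusted by Benjamini-Hochberg over all tested probe sets. The number of arrays limits the precision, and the fit holds no term for deviations shared by arrays of 1 strain within a set.

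Set numbers pair the arrays by the check in the results, in which every pair of the same set correlated above 0.1. The design text calls the replicates biological, with no more said of their source. Gene names came from the platform annotation, updated for 20701 probe sets through the RefSeq gene table of assembly WBcel235, while 65 kept the platform's name; 887 probe sets with several genes and 972 with none were not named. Tested probe sets of 1 gene covered 9418 genes. Promoter windows and protein sequences were not used here.

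Named genes were the 15 largest rises and 15 largest falls among called single-gene probe sets without overlap, all transgene and known target genes, the 10 candidate responders, up to 4 members of each other list with the smallest p, and up to 6 genes called only with the array titled 2_2 (2). In lists a gene is its brightest probe set. The members, the lists and the rule were chosen with earlier results of these data known. Steps were tested on simulated data with known changes. Alternatives covered the block, the array titled 2_2 (2), the arrays in the fit, quantile normalization, the floor, the filter, the intensity trend and each array left out. Placing the array titled 2_2 (2) in set 2 and leaving out set 2 were added after seeing the data.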

Additional observations from a re-analysis of the deposited data

How the results depend on the processing

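The counts of calls moved with the set number as a replicate block and with several other choices. Between HLH code 2 and marker code 4, 177 rises and 232 falls were called. There were 23 and 26 without the block, 85 and 142 when arrays 2_2 (2) and 2_2 were averaged, 72 and 107 with only the arrays compared, 60 and 55 with no filter, 91 and 129 with the array titled 2_2 (2) in set 2, and 34 and 30 without set 2. Without the intensity trend 125 rises and 148 falls were called. Leaving out 1 array gave 53 to 180 rises and 56 to 300 falls. Quantile normalization gave 171 and 212, and both other floors stayed within 1.5 times. Between HLH code 1 and marker code 3, 182 rises and 269 falls were called, with 23 and 31 without the block, 64 and 140 with only the arrays compared, 48 and 59 with no filter, 119 and 170 without the trend, 95 and 154 with the array titled 2_2 (2) in set 2, 24 and 31 without set 2, and 42 to 163 and 67 to 278 with 1 array left out. The difference of differences gave 0 to 1 calls with 1 array left out and could not be run on the compared arrays alone.

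Of 44 called genes among the largest rises and falls, the construct genes, the candidate responders and the calls resting on the array titled 2_2 (2), 19 stayed called without the block, 28 with the averaged array, 15 with no filter, 29 with the array titled 2_2 (2) in set 2, 17 without set 2, and 18 to 33 with 1 array left out. Those called under all 16 alternatives were 13: hlh-8, hlh-2, rol-6, lea-1, npr-16, dex-1, cnc-2, tbb-6, ZC196.5, plc-1, ZK512.7, F43C11.3 and srsx-34. None of the 44 changed direction. Of 24 called list members outside these 44, 2 stayed called without the block and 20 with the array titled 2_2 (2) left out. The uncalled egl-15 changed direction in 4 of the 16 alternatives. It was at -0.17 with the averaged array and -0.14 with the array titled 2_2 (2) in set 2. With 1 array left out it lay between -0.19, without that array, and 0.21. The uncalled arg-1 was at 0.00 with that array in set 2 and between -0.33 and 0.06 with 1 array left out. The cause of these changes was not tested.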

Other observations

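Of 149 genes called higher and placed on the gene table, 25 had another called rise within 5 protein-coding genes on either side (16.8%), against 715 of all 9275 tested genes (7.71%). Of 187 genes called lower, 37 had another called fall within that window (19.8%), against 839 of 9275 (9.05%). These shares describe the gene order and carry no test.

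Gene families are given beside the 1.44% of all tested probe sets called higher and the 1.88% called lower. By gene name, the C-type lectin family held 65 tested genes on the array, of which 0 were called higher and 8 lower, with a median of -0.17 at codes 2 and 4 and -0.10 at codes 1 and 3. Among 78 tested col collagen genes 1 was called higher and 5 lower, with a median of -0.07. Of 45 ugt genes of the UDP-glucuronosyltransferase family 2 were called higher and 3 lower, with a median of -0.01. The nuclear hormone receptor family had 125 tested genes, 1 called in each direction, below those shares, and a median of -0.02.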
